A study of Mus musculus with 2 samples.

Results

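The resting fibroblast identity genes described here are 10 genes that mark quiescent cardiac fibroblasts and their adventitial relatives: Pdgfra, Tcf21, Scara5, Dpt, Gsn, Pi16, Mfap5, Dpep1, Cd248 and Dpp4. They were chosen by symbol, all 10 were found among the 19465 genes counted, and all 10 passed a minimum of 20 UMIs over both sections. The counts come from formalin-fixed, paraffin-embedded mouse heart sections of 5 μm, read with the Visium CytAssist probe assay, in which each UMI (unique molecular identifier) is 1 captured probe molecule assigned to a spot on a slide grid. The control section came from 1 α-MHC-MerCreMer+/− mouse, and the transgenic section from 1 α-MHC-MerCreMer+/− hTOP2B LSL/− mouse. Both mice carried the cardiomyocyte-driven, tamoxifen-dependent Cre and both received a single intraperitoneal injection of 80 mg/kg tamoxifen, given at 6 weeks of age in the study's acute model. In the transgenic line a stop cassette before a human TOP2B cDNA at Rosa26 is removed by Cre, so the induced gene is expressed in cardiomyocytes and not in fibroblasts by design.

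Resting fibroblasts of the heart lie between cardiomyocytes and around vessels, maintain the collagen network, and are recognised by PDGFRα and TCF21, while an adventitial pool carries PI16, DPP4 and CD248. When the muscle is injured or loaded, fibroblasts can proliferate and turn on a matrix program marked by periostin (Postn), and transcripts of the resting state are often described as declining in the cells that make this change. A Visium spot is a small region that holds several cells or parts of cells, so a count per spot does not separate more fibroblasts from more RNA per fibroblast.

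The control section held 1256 spots over tissue with 14376300 UMIs and a median of 11335.5 UMIs per spot, and the transgenic section held 924 spots with 12953389 UMIs and a median of 14531. Of the spot barcodes, 725 occurred in both sections, since they name fixed positions of the slide grid. With 1 section per group, no difference between the groups has a replicate check and no p-value was computed. Levels are given as CPM, UMIs per 1000000 UMIs of the section, and all 95% intervals cover counting error only. Mouse Top2b stood at 106 CPM in the control section and at 102 CPM in the transgenic one (log2 ratio -0.07, interval -0.17 to 0.04), and whether its mouse probes read the human cDNA is not given in the sources used here. Cardiomyocyte markers (Actn2, Ttn, Ryr2, Myh6 and Tnnt2), which define heart muscle, summed to 36811 CPM in control and 24107 CPM in transgenic tissue. Most of that gap lay in Myh6, at 18470 and 5734 CPM. Actn2, Ttn and Ryr2 were lower as well, with log2 ratios of -0.42, -0.60 and -0.50. Only Tnnt2 was higher, at 13091 and 14721 CPM. Red blood cell genes summed to 489 and 4909 CPM, and 74 transgenic spots, against 9 control spots, drew over 1% of their UMIs from them. Many of these transgenic spots formed a patch inside the chamber that was connected to the wall on the spot grid.

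Of the 10 genes, 7 were higher in the transgenic section, against 63.2% of the 15236 genes with at least 20 UMIs. The log2 ratio was at least 1 for 5 of them, against 13.7% of all genes, and at most -1 for 0 of them, against 5.61%. The median log2 ratio of the set was 0.61, beside a median of 0.20 over all genes. The counting interval lay above 0 for 5 members (39.4% of all genes) and below 0 for 1 member (17%). The set therefore split into Pdgfra, Tcf21, Pi16, Mfap5 and Dpep1, which were higher, Scara5, which was lower, and Dpt, Gsn, Cd248 and Dpp4, whose intervals held 0.

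Pdgfra encodes the receptor tyrosine kinase for platelet-derived growth factors that is the usual surface mark of cardiac fibroblasts. It had 247 UMIs (17.2 CPM, interval 15.1 to 19.5) in the control and 499 UMIs (38.5 CPM, 35.2 to 42.1) in the transgenic section. The difference was 2.24-fold (log2 ratio 1.16, interval 0.94 to 1.39). Tcf21 encodes the basic helix-loop-helix transcription factor required for cardiac fibroblasts to form from the epicardium. Its level went from 14.7 CPM on 212 UMIs to 59.2 CPM on 767 UMIs, a ratio of 4.02-fold (log2 2.01, interval 1.78 to 2.23). Both lineage genes were thus higher in the transgenic section, Tcf21 by more than Pdgfra, and their intervals did not meet.

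Pi16, a gene of the adventitial pool, encodes a secreted or membrane-anchored peptidase inhibitor. It had 841 UMIs (58.5 CPM, 54.6 to 62.6) in the control and 2521 UMIs (195 CPM, 187 to 202) in the transgenic section (log2 ratio 1.73, interval 1.62 to 1.85). Mfap5, a microfibril-associated glycoprotein of elastic fibres, had the highest ratio of the set. It rested on 260 UMIs (18.1 CPM) and 1159 UMIs (89.5 CPM), 4.95-fold apart (log2 2.31, interval 2.11 to 2.51). Dpep1, a membrane-bound dipeptidase, stood at 39.2 CPM on 563 UMIs and 165 CPM on 2132 UMIs (log2 2.07, interval 1.94 to 2.21). The other genes named above for the adventitial pool, Cd248 and Dpp4, did not follow. Cd248, which encodes endosialin and is carried by mural cells as well as fibroblasts, stood at 41.5 CPM in control and 39.5 CPM in transgenic tissue (log2 ratio -0.07, interval -0.24 to 0.10). Dpp4, the cell surface peptidase CD26 that T cells also carry, had only 57 and 51 UMIs (3.96 and 3.94 CPM), and its interval, from 0.667-fold to 1.47-fold, holds 1, so a difference of that size was not detectable at this depth. Mural markers summed to 951 CPM in control and 815 CPM in transgenic tissue, with 3 of 7 genes higher (63.2% of all genes). Abcc9 alone stood at 254 and 85.3 CPM, while Pdgfrb, Notch3 and Tagln were higher, so the sum gives no common direction. T cell markers summed to 6.40 and 7.95 CPM. The part of these cells in the Cd248 and Dpp4 values was not tested.

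The remaining members encode matrix, cytoskeletal and uptake proteins. Gsn, gelsolin, severs actin filaments and is made by many cell types, and its 8547 control UMIs and 7706 transgenic UMIs gave 595 CPM in both sections (log2 ratio 0.00, interval -0.04 to 0.05). Dpt, dermatopontin, a matrix protein that binds decorin and collagen fibrils, stood at 104 CPM on 1491 UMIs and 108 CPM on 1403 UMIs (log2 0.06, interval -0.04 to 0.17). Under TMM factors, DESeq2 size factors (1 for both sections, which leaves raw sums) and totals without the 50 most abundant genes, Gsn came to -0.16, -0.15 and -0.09. Dpt came to -0.09 under TMM and DESeq2, so neither gene has a direction that holds across scalings. Scara5, a scavenger receptor that takes up ferritin, was the only member with an interval below 0. It had 267 UMIs (18.6 CPM, 16.4 to 20.9) in the control and 131 UMIs (10.1 CPM, 8.46 to 12.0) in the transgenic section, so the control was 1.84-fold higher (log2 ratio -0.88, interval -1.19 to -0.57).

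**Figure D1:**
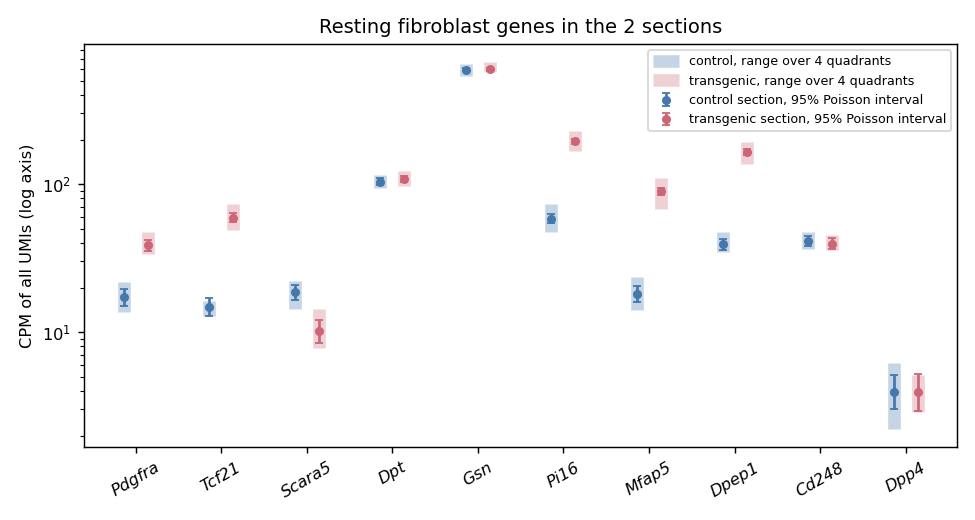
CPM of all UMIs (log axis) for each of the 10 genes in the control (blue) and transgenic (red) section; points carry 95% Poisson intervals and the pale bars show the range over 4 quadrants of a section. Red bars lie wholly above blue ones for Pdgfra, Tcf21, Pi16, Mfap5 and Dpep1, and wholly below for Scara5, while those of Dpt, Gsn, Cd248 and Dpp4 overlap.

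The spread inside each section was read from 4 quadrants split at the centre of its tissue. For 5 members every transgenic quadrant lay above every control quadrant, as it did for 30.4% of all genes, and for 1 member every transgenic quadrant lay below, as for 13.1%. Pdgfra ran from 13.6 to 21.7 CPM over the control quadrants and from 33.5 to 47.4 CPM over the transgenic ones. Mfap5 ran from 14.1 to 23.4 CPM and from 68.1 to 110 CPM. Scara5 ran from 14.3 to 22.2 CPM and from 7.77 to 14.3 CPM, so its quadrants only just failed to touch. The quadrants of Gsn, 536 to 651 CPM for the control and 570 to 665 CPM for the transgenic tissue, overlapped widely.

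The share of spots with at least 1 UMI moved in the same way for most members. Pi16 was found in 42.0% of control spots (39.2 to 44.7%) and in 84.1% of transgenic spots (81.6 to 86.4%), Mfap5 in 18.6% and 63.6%, and Tcf21 in 15.3% and 51.9%. Because transgenic spots were deeper, each spot was in addition drawn down to 8134 UMIs, and the 140 control and 78 transgenic spots below that depth were dropped. The thinned shares were 34.1% and 74.6% for Pi16, 14.2% and 47.3% for Mfap5, and 11.1% and 36.8% for Tcf21. Pdgfra stood at 12.6% and 26.7% after thinning, Dpep1 at 26.7% and 65.7%, and Scara5 at 14.0% and 8.27%. Cd248 was found in 35.0% and 38.7% of the spots as counted but in 27.2% and 26.2% after thinning, so no order is read from its share. No spot held more than 12 UMIs of any member other than Gsn, Pi16 and Dpep1, whose highest spots held 44, 27 and 18 UMIs, all in the transgenic section.

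Promoter sequences are shown for Pi16 and Dpep1, each higher in the transgenic section, and for Dpt, which was level. TCF21 and other basic helix-loop-helix factors bind E-boxes, and the Tcf21 transcript was 4.02-fold higher. Whether TCF21 acts on these genes was not tested. The windows run from 250 bases before to 50 bases after the annotated start in RefSeq (build GRCm38.p6), 5′ to 3′ on the plus strand of the genome for all of them, with each match to the E-box CAGCTG in capitals. Pi16 lies at chr17:29318632-29318931, Dpep1 at chr8:123185985-123186284 and Dpt at chr1:164796413-164796712.
Pi16: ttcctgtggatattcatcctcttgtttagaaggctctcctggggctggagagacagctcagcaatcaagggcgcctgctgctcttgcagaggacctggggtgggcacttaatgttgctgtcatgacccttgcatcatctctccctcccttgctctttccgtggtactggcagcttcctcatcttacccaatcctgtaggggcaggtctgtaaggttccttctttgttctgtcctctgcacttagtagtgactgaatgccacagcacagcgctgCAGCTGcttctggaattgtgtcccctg
Dpep1: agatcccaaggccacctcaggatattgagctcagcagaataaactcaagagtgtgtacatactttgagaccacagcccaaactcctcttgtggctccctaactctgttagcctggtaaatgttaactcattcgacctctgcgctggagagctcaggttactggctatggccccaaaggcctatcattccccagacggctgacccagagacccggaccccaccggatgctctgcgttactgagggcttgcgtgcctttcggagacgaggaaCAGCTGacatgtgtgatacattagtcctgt
Dpt: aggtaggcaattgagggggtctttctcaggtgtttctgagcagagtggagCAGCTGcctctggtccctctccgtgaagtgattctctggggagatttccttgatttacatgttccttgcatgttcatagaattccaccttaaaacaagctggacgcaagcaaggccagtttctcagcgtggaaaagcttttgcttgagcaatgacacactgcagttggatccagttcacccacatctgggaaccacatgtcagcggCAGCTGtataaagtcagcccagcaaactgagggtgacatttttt
CAGCTG reads the same on both strands and matched once in the windows of Pi16 and Dpep1 and 2 times in that of Dpt. RefSeq windows were matched for 7 of the 10 members, 9 windows in all, and 5 of these, from 4 genes (Pi16, Dpep1, Dpt and Gsn), held it. Pdgfra, Tcf21 and Dpp4 had no match in their windows, and Scara5, Mfap5 and Cd248 have no window here. Of all 32851 RefSeq promoter windows of this length, 16.3% held CAGCTG. The genes with a match include Gsn and Dpt, which did not differ between the sections, as well as Pi16 and Dpep1, which did, and a match of letters is not a bound site.

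The sections also differed in how much fibroblast RNA they held in all. The 10 pan-fibroblast genes (Dcn, Lum, Col1a1, Col1a2, Col3a1, Mmp2, Ddr2, Pcolce, Fbln1 and Col6a1), most of which encode collagens or proteins that assemble them, summed to 1592 CPM in control and 6121 CPM in transgenic tissue. All 10 were higher, against 63.2% of all genes. Their log2 ratios ran from 0.41 for the collagen receptor Ddr2 to 2.68 for Col1a1, with a median of 1.29. The resting genes together went from 910 CPM on 13081 UMIs to 1303 CPM on 16881 UMIs (log2 ratio 0.52, interval 0.49 to 0.55), and without Gsn from 4534 to 9175 UMIs (log2 1.17, 1.12 to 1.22). Gsn alone made up 65.3% of the set's UMIs in the control and 45.6% in the transgenic section.

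Counted per pan-fibroblast UMI, 7 members were lower in the transgenic section, all 7 with intervals below 0, but 96.3% of all genes were lower on this scale. The share of all genes with an interval below 0 was not taken on it. Scara5 had the lowest value, a log2 ratio of -2.82, from 11.7 to 1.65 UMIs per 1000 pan-fibroblast UMIs. Cd248 came to -2.01, Dpp4 to -1.95, Gsn to -1.94 and Dpt to -1.88. Pdgfra came to -0.78 and Pi16 to -0.21. Mfap5 was the only member with an interval above 0 (log2 0.36, 0.17 to 0.56), while Tcf21 at 0.06 and Dpep1 at 0.13 had intervals that held 0. Collagens carry much of that sum, and per UMI of Dcn, the proteoglycan decorin, only 5 members were lower (87.3% of all genes were), namely Scara5, Cd248, Dpp4, Gsn and Dpt. On that scale Pdgfra was level at 0.12 and Mfap5 stood at 1.26. Each of these scales moves every gene by 1 constant, so the order of the members is the same on all of them.

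**Figure D2:**
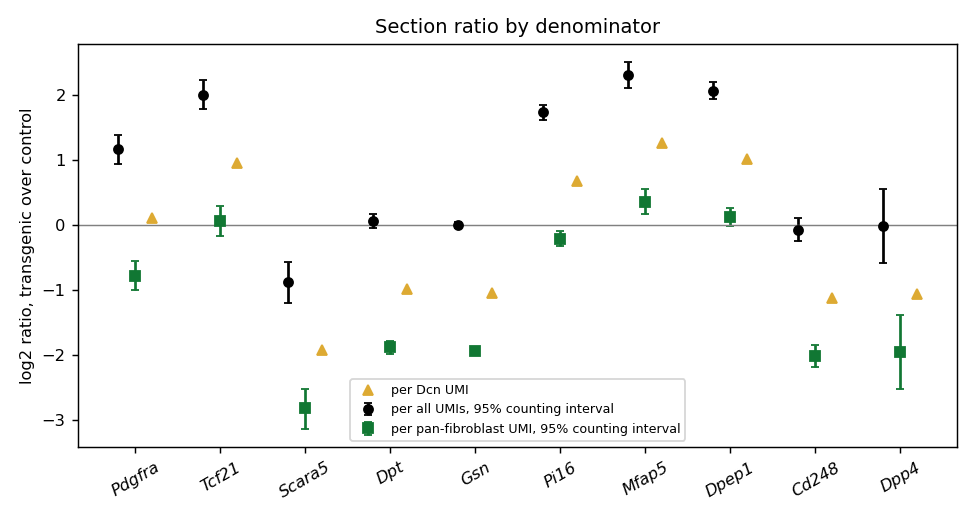
Log2 ratio of the transgenic over the control section for each gene, per all UMIs (black circles), per pan-fibroblast UMI (green squares) and per Dcn UMI (yellow triangles); bars are 95% counting intervals and none are drawn for the Dcn scale. The values of Scara5 lie below 0 on each scale, at -0.88, -2.82 and -1.92, and those of Mfap5 above it.

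A further 20 genes known from resting or adventitial fibroblasts, other than the 10 members, gave a wider split. Of these 16 were higher in the transgenic section (63.2% of all genes), 7 had a log2 ratio of at least 1 (13.7%) and 2 of at most -1 (5.61%). Their median was 0.53, beside 0.20 over all genes. Gpx3, an extracellular glutathione peroxidase that cardiomyocytes can also make, was highest at 4.49 on 2726 and 55030 UMIs. Cxcl14, a chemokine, was lowest at -2.27 on 155 and 29 UMIs. Of the 15 activated fibroblast genes 14 were higher and 13 had a log2 ratio of at least 1, beside the same shares of all genes. Their median was 4.27. Ltbp2, which binds latent TGF-β complexes and fibrillin, was highest in that list at 6.92, and Fap, a surface protease of activated fibroblasts, was lowest at -0.36 on 67 and 47 UMIs. Postn itself had 261 UMIs (18.2 CPM) in the control and 6590 UMIs (509 CPM) in the transgenic section, 28.0-fold apart.

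Markers of other cell types were summed the same way, since some members are carried by them. For the counts that follow, 63.2% of all genes were higher in the transgenic section. Macrophage markers went from 242 to 491 CPM with 7 of 7 genes higher. Epicardial mesothelial markers went from 16.3 to 33.7 CPM with 5 of 6 genes of at least 20 UMIs higher. Atrial markers went from 21.4 to 58.4 CPM with 2 of 3 such genes higher, namely Myl7 and Myl4. The third, Sln, was lower, on 16 and 10 UMIs. Endothelial markers went from 793 to 714 CPM with 3 of 6 genes higher and Kdr alone at 215 and 113 CPM. Schwann cell markers went from 14.5 to 11.3 CPM with 1 of 4 genes higher, and adipocyte markers stood at 2.30 and 2.24 CPM. No gene of these lists was at 0 in both sections, and their part in the members' values was not tested.

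Within the sections, members differed in where they lay. Edge spots, which touch a grid position without tissue at the outer surface or at the chamber, numbered 230 in the control and 311 in the transgenic section. In the control 8 members were higher at the edge (56.6% of genes that reached 20 UMIs there) and in the transgenic section 7 (48.8%). In the transgenic section Dpep1 stood at 219 CPM in the outermost spots and at 171, 145, 102 and 85.4 CPM in successive layers inward, the last holding all spots from layer 5 on. Its edge level was above its interior level by a log2 ratio of 0.62 in both sections (0.49 to 0.74 in the transgenic and 0.31 to 0.92 in the control section). Tcf21 went from 67.0 CPM in the outermost transgenic layer to 33.7 CPM in the innermost, and Gsn from 631 to 411 CPM.

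Pi16 and Mfap5 lay the other way. Pi16 was lower at the edge than in the interior in both sections, at 44.7 and 60.8 CPM in the control (log2 ratio -0.44, interval -0.78 to -0.13) and at 174 and 203 CPM in the transgenic section (-0.22, -0.35 to -0.09). Mfap5 came to -0.26 in the transgenic section (-0.45 to -0.06) and to -0.27 in the control, where its interval held 0. Pdgfra was higher at the control edge, at 29.8 against 15.1 CPM (log2 0.98, 0.53 to 1.40), and by 0.35 at the transgenic edge. Only Dpp4, on 23 and 28 UMIs, exceeded 2-fold at the transgenic edge (log2 1.07, 0.21 to 1.92). Postn was lower at the transgenic edge, 371 against 563 CPM, and level in the control, 17.9 and 18.2 CPM.

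**Figure D3:**
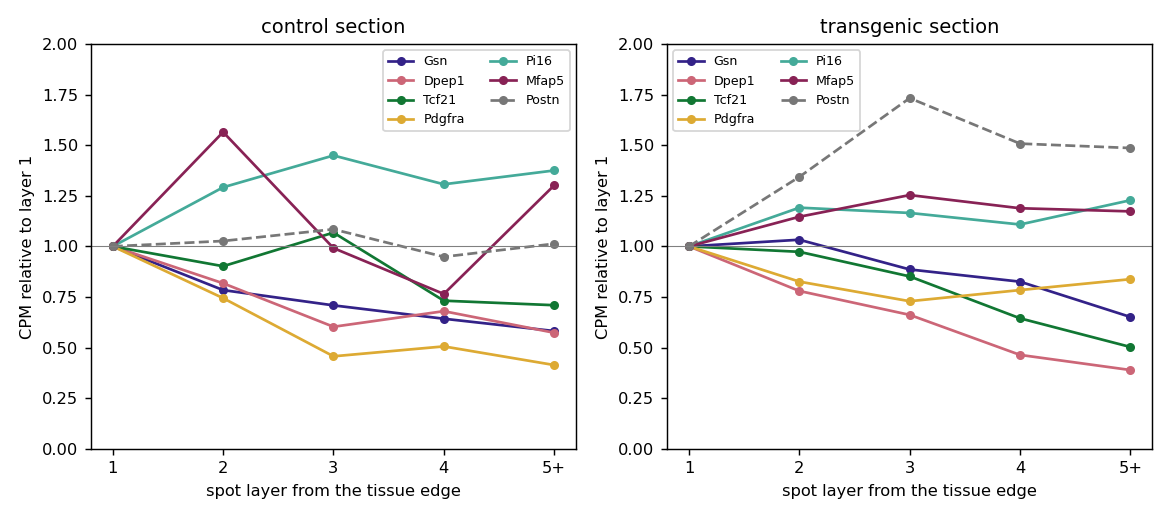
CPM by spot layer from the tissue edge, relative to layer 1, for 6 members and Postn (dashed) in each section; layer 5+ pools all deeper spots and no error bars are drawn. In the transgenic section Dpep1 declines inward from 219 to 85.4 CPM while Pi16, Mfap5 and Postn stand above their layer 1 values in each deeper layer.

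The deposited Moran's I, which is near 0 for a gene scattered at random over the spots and positive where like values adjoin, was low for most members in the control. Gsn had the highest value there, 0.215, followed by Pi16 at 0.134. In the transgenic section Gsn reached 0.424 and Dpep1 0.303, from 0.028 in the control, while Mfap5 stood at 0.157 and Tcf21 at 0.115. Scara5 and Cd248 kept low values in both sections, 0.036 and 0.035 for Scara5 and 0.083 and 0.062 for Cd248. Dpp4, with its few UMIs, had 0.006 and 0.022. Postn had 0.006 in the control and 0.574 in the transgenic section. Dpep1, Mfap5, Tcf21 and Postn also had more UMIs in the transgenic section (563 and 2132 for Dpep1), while Gsn did not (8547 and 7706). The part of the UMI counts in these values was not tested.

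**Figure D4:**
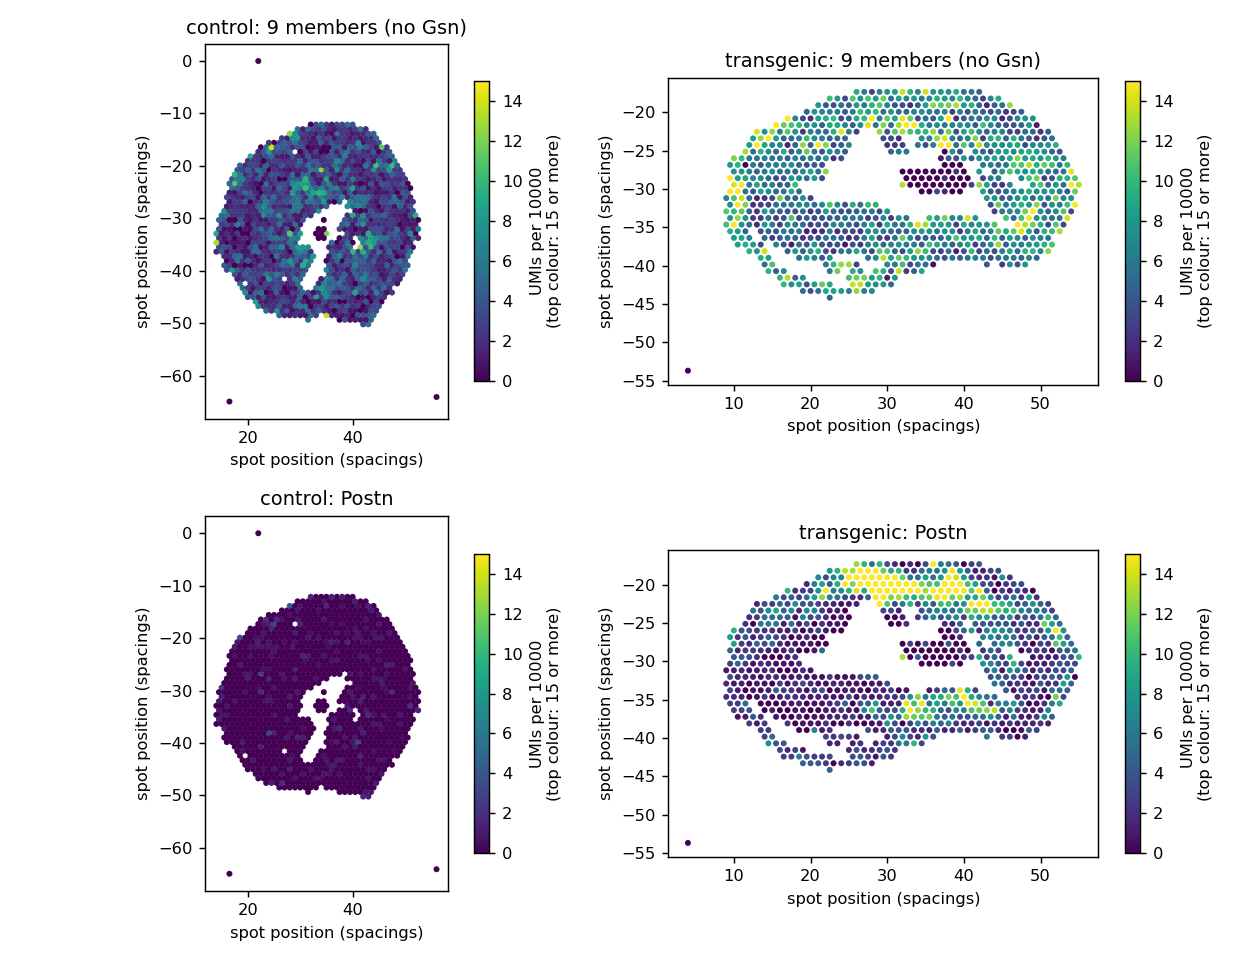
Spots of the control (left) and transgenic (right) section at their grid positions, in spot spacings, coloured by UMIs per 10000 of the 9 members other than Gsn (top row) and of Postn (bottom row); the top colour stands for 15 or more. The members are spread over the wall of both sections, at 4534 UMIs in the control and 9175 UMIs in the transgenic section. Postn is concentrated in the upper wall of the transgenic section. A patch of transgenic spots inside the chamber, connected to the wall, holds few UMIs of the members or of Postn. Single spots far from the tissue were kept.

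The question whether the resting genes are lower where Postn is found was put to the transgenic section, in which 823 spots held at least 1 Postn UMI and 101 held none. All 10 members were higher in the spots with Postn, against 73.3% of genes that reached 20 UMIs there. The log2 ratio was at least 1 for 3 members (11.4% of genes), and the interval lay above 0 for 6 members (15.9%). The median of the set was 0.58, beside 0.26 over all genes. Pdgfra stood at 40.5 CPM with Postn and 13.6 CPM without (486 and 13 UMIs, log2 ratio 1.58, interval 0.79 to 2.50). Cd248 stood at 41.2 and 18.8 CPM on 494 and 18 UMIs (1.13, 0.46 to 1.90), and Mfap5 at 92.8 and 48.0 CPM (0.95, 0.53 to 1.41). Dpp4 rested on 50 UMIs and 1 UMI, with an interval from -0.55 to 7.33. Gsn (0.06), Dpep1 (0.16) and Scara5 (0.50, on 124 and 7 UMIs) had intervals that held 0.

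The spots without Postn were not like the others in further ways. Their median was 9886 UMIs, against 14803, and 48.5% of them lay at the edge, against 31.8%. Red blood cell genes made up 24150 CPM in them and 3372 CPM in the spots with Postn, and 32 of the 101 spots drew over 1% of their UMIs from these genes. Without the 10% of spots richest in red blood cell genes, 763 spots with and 68 without Postn remained and 8 members were higher (60.7% of genes), with Gsn at -0.13, Dpep1 at 0.00, Pdgfra at 1.33, Mfap5 at 0.84 and a set median of 0.45. The largest connected piece of tissue held 922 of the 924 spots. It left out only 2 near-empty spots (median 0.5 UMIs) and kept the patch inside the chamber. The count stayed at 10 and the median at 0.58 there, as that filter could hardly change them. Per pan-fibroblast UMI, a scale that lowers every gene by the same amount and left 10.8% of all genes above 0, Pdgfra, Cd248 and Dpp4 were higher in the spots with Postn, and the median was -0.45. Collagens carry much of that sum, and Dcn alone came to 0.49 (0.37 to 0.62) per all UMIs. Finding a Postn UMI also depends on depth. With each spot drawn down to 8134 UMIs, 714 spots with and 132 without Postn were compared per all UMIs. Cd248 then came to 0.12, Pi16 to 0.27, Mfap5 to 0.70 and Pdgfra to 1.02, and Scara5 alone was below 0, at -0.25. In the control, where 222 spots held Postn, 8 members were higher in them (52.5% of genes), the median was 0.07, and only Pi16 had an interval above 0 (log2 0.30, 0.06 to 0.54). The share of all genes with such an interval was not taken in the control.

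Presence of 1 Postn UMI separates few spots of this section, so all spots were also ranked by Postn UMIs per 10000 and cut into 3 classes of 308 spots. The low class ran from 0 to 1.86, the middle class to 4.65 and the high class to 34.7 Postn UMIs per 10000. The classes differed in depth, with medians of 13285, 14507.5 and 15628.5 UMIs per spot, and in edge share, 35.1%, 40.3% and 25.6%. Between the low and the high class 7 members were higher (62.4% of genes), 6 of them with intervals above 0 (17.4% of genes), and 3 were lower with intervals below 0 (8.13% of genes).

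Mfap5 had the largest difference among the members, at 61.7, 75.8 and 125 CPM in the low, middle and high class (log2 ratio of high over low 1.02, interval 0.80 to 1.24). Pi16 followed at 147, 180 and 248 CPM (0.76, 0.62 to 0.91), and Cd248 at 31.2, 35.1 and 50.5 CPM (0.69, 0.37 to 1.02). The lineage genes differed less, Tcf21 at 45.1 CPM in the low and 68.0 CPM in the high class (0.59, 0.32 to 0.87) and Pdgfra at 29.7 and 42.8 CPM (0.53, 0.19 to 0.87). Dpt stood at 97.0, 110 and 116 CPM (0.26, 0.07 to 0.45), and Dpp4, on 12, 22 and 17 UMIs, had an interval that held 0.

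The members that were lower where Postn was highest were Scara5, Gsn and Dpep1. Scara5 stood at 12.0, 11.5 and 7.25 CPM on 47, 50 and 34 UMIs (log2 ratio -0.73, interval -1.41 to -0.06). Gsn stood at 634, 623 and 536 CPM (-0.24, -0.32 to -0.16). Dpep1 was not ordered over the classes. It was highest in the middle class, at 165, 210 and 122 CPM, and lower in the high than in the low class by a log2 ratio of -0.44 (-0.60 to -0.27). In the contrast of spots with and without Postn the intervals of these 3 genes held 0.

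**Figure D5:**
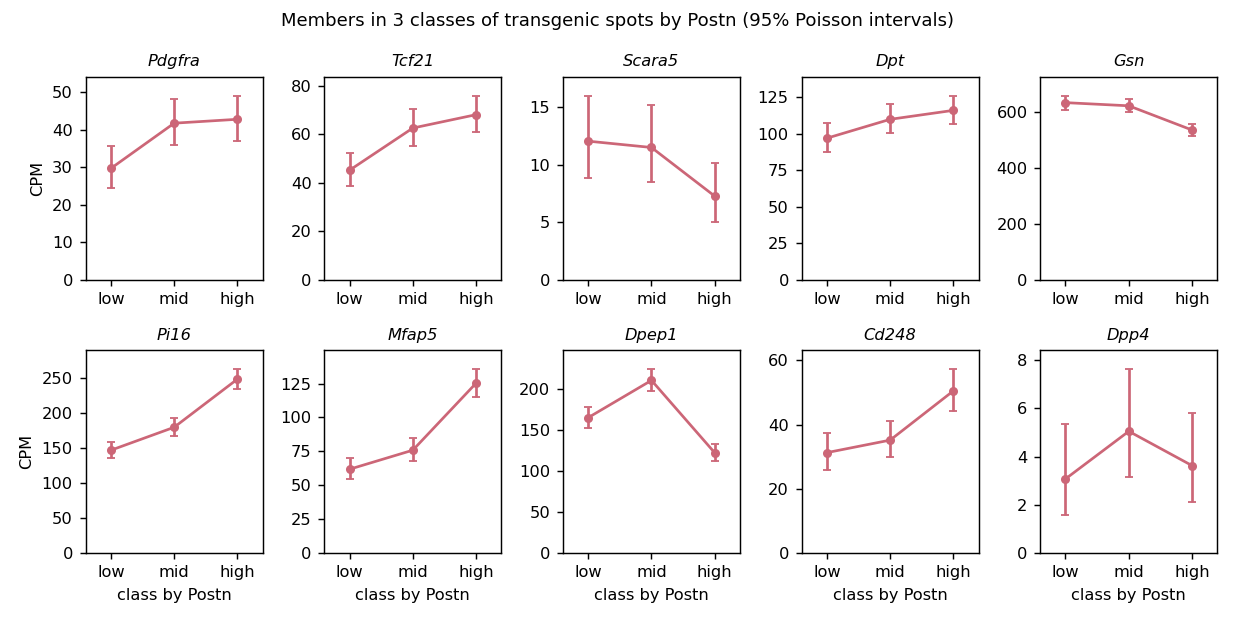
CPM of each member in the low, middle and high class of transgenic spots by Postn UMIs per 10000 (308 spots each), on linear axes that start at 0, with 95% Poisson intervals. Mfap5 and Pi16 stand higher in each successive class, Scara5 and Gsn are lowest in the high class, and Dpep1 is highest in the middle class.

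Position in the section moved with this pattern. Among interior spots ranked by themselves, 6 members were higher in the high class (60% of genes), with Mfap5 at 1.13, Pi16 at 0.77, Gsn at -0.28 and Scara5 at -1.03. Pdgfra came to 0.30 there, with an interval from -0.11 to 0.71. Among edge spots Scara5 came to 0.25, on 13 UMIs in the high and 9 in the low class, with an interval from -1.08 to 1.66. Dpep1 stood at 152 CPM in the low and 91.0 CPM in the high class of interior spots (log2 -0.74, interval -0.96 to -0.53). Among edge spots it stood at 194 and 199 CPM (0.04, -0.23 to 0.31). By quadrant, Pi16, Mfap5, Dpt and Cd248 were higher in the high class in 4 of 4. Pdgfra and Tcf21 were higher in 3, Dpp4 in 2, and Scara5, Gsn and Dpep1 in 1. The share of all genes was not taken for these counts. Each Dpt interval held 0, with values from 0.03 to 0.23. The Pdgfra intervals held 0 in the upper left and lower right quadrants of the map, at 0.63 and -0.49. The Tcf21 interval lay above 0 only in the lower left quadrant, at 0.63 (0.03 to 1.26). In the lower left quadrant of the map the intervals of Pi16, Mfap5 and Cd248 held 0, as did that of Cd248 in the lower right one. The Scara5 values ran from -0.81 to 0.05 over the quadrants, and each interval held 0. The Dpep1 values opposed each other, from -1.06 in one quadrant to 1.08 in another, the lower left one of the map, where it stood at 116 and 246 CPM. Without the 10% of spots richest in red blood cell genes 7 members were higher in the high class (57.1% of genes), with Dpep1 at -0.57, Gsn at -0.37 and Scara5 at -0.99.

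The sum of the pan-fibroblast genes also differed, at 3897, 6172 and 7924 CPM over the classes. Collagens carry much of that sum. Dcn alone stood at 684, 847 and 780 CPM (log2 ratio of high over low 0.19, interval 0.12 to 0.26). Scara5, Gsn and Dpep1 had lower ratios than Dcn per all UMIs, and the other members had higher ones. Counts per Dcn UMI were not taken over the classes. Per pan-fibroblast UMI all 10 members were lower in the high class (96.3% of genes were), 8 of them with intervals below 0. The share of all genes with such an interval was not taken on this scale, so that count has no background. Scara5 came to -1.76, Dpep1 to -1.46, Gsn to -1.27 and Dpt to -0.76 on this scale. Pi16 came to -0.26, and Mfap5 to 0.00 with an interval from -0.22 to 0.22. Macrophage markers went from 405 CPM in the low class to 558 CPM in the high class, cardiomyocyte markers from 25726 to 22481 CPM, and red blood cell genes from 8505 to 2795 CPM. Their part in the members' values was not tested.

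Across spots the members tracked one another weakly. Spearman correlations of UMIs per 10000 over all pairs of members had a median of 0.05 over 1256 control spots and 0.08 over 923 transgenic spots with UMIs, and none exceeded 0.18 and 0.26. Spots share their library and differ in depth, and at such sparse counts these values are a description and no finding. With the sum of the 9 members other than Gsn, the genes most alike in the control were Col1a2 (0.25), Col3a1 (0.25), Dcn (0.23), Igfbp7 (0.22) and Col1a1 (0.21), out of 7212 genes of at least 200 UMIs. In the transgenic section they included Igfbp7 (0.51), Bgn, Eln and Col3a1 (each 0.48), out of 7582. Postn stood at 0.05 in the control, rank 1036, and at 0.29 in the transgenic section, rank 91.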

How the data were processed

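Visium CytAssist libraries of FFPE heart sections from 1 control and 1 transgenic mouse were analysed. The values are raw UMI counts per gene and spot as deposited; the authors made them with Space Ranger 2.0.0, per the file headers, and the labels name the builds GRCm39 and mm39. The probe set version is not given in the sources used here. Moran's I is a score per gene that the authors deposited from Space Ranger and was used as given. The deposited counts are whole numbers and sum per gene to the counts in the deposited Moran's I tables.

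Counts were summed over spots, spots of a section being no replicates, and given as CPM with exact Poisson intervals. Ratios carry exact conditional binomial intervals, and shares of spots carry Clopper-Pearson intervals, all at 95%. A count of 3, the limit that a count of 0 allows, comes to 0.209 CPM (control) and 0.232 CPM (transgenic). Genes with at least 20 UMIs served as the background, and a 2-fold difference was counted as large. Edge spots have a neighbouring grid position without tissue. The study's test over spots takes spots as replicates and was not repeated. The intervals of the ratios were tested on simulated counts. The thinning was checked on the transgenic counts only for equal totals per spot. Alternatives used edgeR 4.0.16 (TMM) and DESeq2 1.42.0 in R 4.3.3, and Python 3.11.15 with scipy 1.17.1 made the rest.

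The members, gene lists and comparisons were chosen with earlier results of these data known. Genes given with values beside the members are Postn, Top2b, the highest and lowest gene of each fibroblast list and of the cardiomyocyte list, and the 5 genes most alike in each section, of which 1 is not reported here. The ranking by Postn among interior spots or spots with Postn, the filters on red blood cell genes and the largest connected piece of tissue were chosen after seeing the data. Promoter windows came from RefSeq GRCm38.p6, which differs from the build of the counts, so coordinates are given for these windows only.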

Additional observations from a re-analysis of the deposited data

How the results depend on the processing

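No paired analysis was possible because each group holds 1 section, and leaving out a replicate is not possible for the same reason. Between the sections, TMM factors, DESeq2 size factors and totals without the 50 most abundant genes moved every gene by -0.16, -0.15 and -0.09 on the log2 scale. The DESeq2 size factors came to 1 for both sections, so that setting compares raw UMI sums without scaling. The 3 settings left 5 members above 0 in place of 7, with medians of 0.46, 0.46 and 0.53. The median of all genes came to 0.05, 0.05 and 0.12, and the share of all genes above 0 was not taken under them. The same 5 members lay above the median of all genes under each of the 3, since each moves every gene alike. The members' median was 1.16 over those with at least 200 UMIs and ran from 0.54 to 0.67 under the other alternatives, interior spots, spots with at least 1000 UMIs, means over spots, 1 CPM added, spots poor in red blood cell genes and the largest piece of tissue. For transgenic spots with over without Postn, counting per pan-fibroblast UMI, which lowers every gene alike and left 10.8% of all genes above 0, turned Tcf21 to -0.50, Dpt to -0.50, Pi16 to -0.41 and Mfap5 to -0.088, the median to -0.45 and the count of higher members to 3. That turn depends on the list chosen, as Col1a1 came to 1.31 per all UMIs and Dcn to 0.49. Of the members, only Gsn and Dpep1 had lower ratios than Dcn per all UMIs. Counts per Dcn UMI were not taken for these spots. The top against the bottom class of the spots with Postn gave a median of 0.20, and the same ranking within interior spots gave 6 higher members. Among interior spots Dpp4 had no UMI in those without Postn, so it gave no value there. With spots thinned to 8134 UMIs, 9 members were higher, with a median of 0.35. The share of all genes that were higher was not taken for the thinned spots, so that count has no background. Counts set the precision: Dpp4, with 57 and 51 UMIs, and Scara5 by Postn class, with 34 to 50 UMIs, are the least certain members.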
